A study of Homo sapiens with 6 samples.

Results

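The neurotrophin genes described here are 7 of the 62656 genes in the tables: the receptor gene NGFR, the ligand genes BDNF, NTF3 and NTF4, the receptor tyrosine kinase genes NTRK2 and NTRK3, and SORT1, which encodes the co-receptor sortilin. They were chosen by name, with earlier results of this comparison known, so their own values are given as a description without a test. RNA was measured in OVCAR5, an established human cell line kept as a model of ovarian cancer, by sequencing of 6 libraries. Cells were exposed for 3 days to the solvent dimethyl sulfoxide (DMSO, 3 libraries) or to 100 nM NTX301 (3 libraries), which the series title calls a DNA hypomethylating agent, a compound that lowers cytosine methylation. All groups share the same cell line and medium, and the labels do not state separate cultures, so p-values measure only the spread between these libraries, which may be technical.

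Neurotrophins are secreted growth factors that keep neurons alive and shape their connections. They are made as precursors, and the mature forms bind Trk receptor kinases: BDNF and neurotrophin-4 (NTF4) bind TrkB (NTRK2), and neurotrophin-3 (NTF3) binds TrkC (NTRK3). The p75 receptor, encoded by NGFR, is a member of the TNF receptor superfamily with a death domain. It binds all mature neurotrophins, and together with sortilin it binds their uncut precursors. Outside the nervous system p75 marks neural crest cells and some mesenchymal stem cells, and BDNF and TrkB also act in the ovary.

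NGFR was 25-fold higher with NTX301 than with DMSO, and among the other members BDNF was 1.21-fold higher, NTF4 1.45-fold lower and SORT1 1.88-fold lower. NTF3, NTRK2 and NTRK3 gave at most 16 counts over the 3 libraries of a group. Of the 7 members, 4 had counts enough to be tested. All 4 passed the edgeR threshold (adjusted p under 0.05), 2 higher and 2 lower, where 70.5% of the 19029 tested genes passed it, 35.4% higher and 35.1% lower. The CPM values (defined with NGFR) of the groups did not overlap for these 4, nor for 73.7% of all tested genes. The members were chosen with this comparison known, and nothing is read from their count.

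Library totals ranged from 22131175 to 25743732 estimated counts. DMSO replicate 3 stood farther from DMSO replicates 1 and 2 (chi-square per degree of freedom 6.57 and 6.21) than these from each other (2.67). Without it, the log2 fold change of NGFR was 4.64 and that of SORT1 was -0.92. Fold changes here are relative to the typical gene: with library totals alone as the scale, the median gene had a log2 fold change of 0.21, and 65% of calls were higher, against 50.2% with the TMM scaling used here. The check of the labelled cells found the keratins KRT8 and KRT18 at 960.21 TPM or more in each library and EPCAM between 51.42 and 91.97 TPM, while MUC16, the CA125 antigen of ovarian tumours, was at 0.17 TPM or less.

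NGFR (ENSG00000064300.9, chromosome 17, 49495293 to 49515017 on the plus strand in GRCh38, GENCODE 29) had 31, 31 and 28 counts in DMSO replicates 1 to 3, and 823, 834 and 849 counts in NTX301 replicates 1 to 3. On the length-corrected TPM scale these levels were 0.63, 0.64 and 0.68 TPM with DMSO, and 18.66, 18.34 and 19.42 TPM with NTX301. The groups did not overlap, and every NTX301 library lay far above every DMSO library. On the CPM scale (counts relative to the TMM-scaled library total), NGFR went from 1.32 ± 0.0288 to 33.0 ± 0.186 (mean ± SD, n = 3 each). The log2 fold change was 4.64 ± 0.08 (estimate ± SE), and 64 of the 19029 tested genes had a higher one. The ratio has a 95% interval of 20.3 to 31.2 for counting error only. In bulk RNA, more cells with NGFR and more NGFR per cell cannot be told apart.

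**Figure D1:**
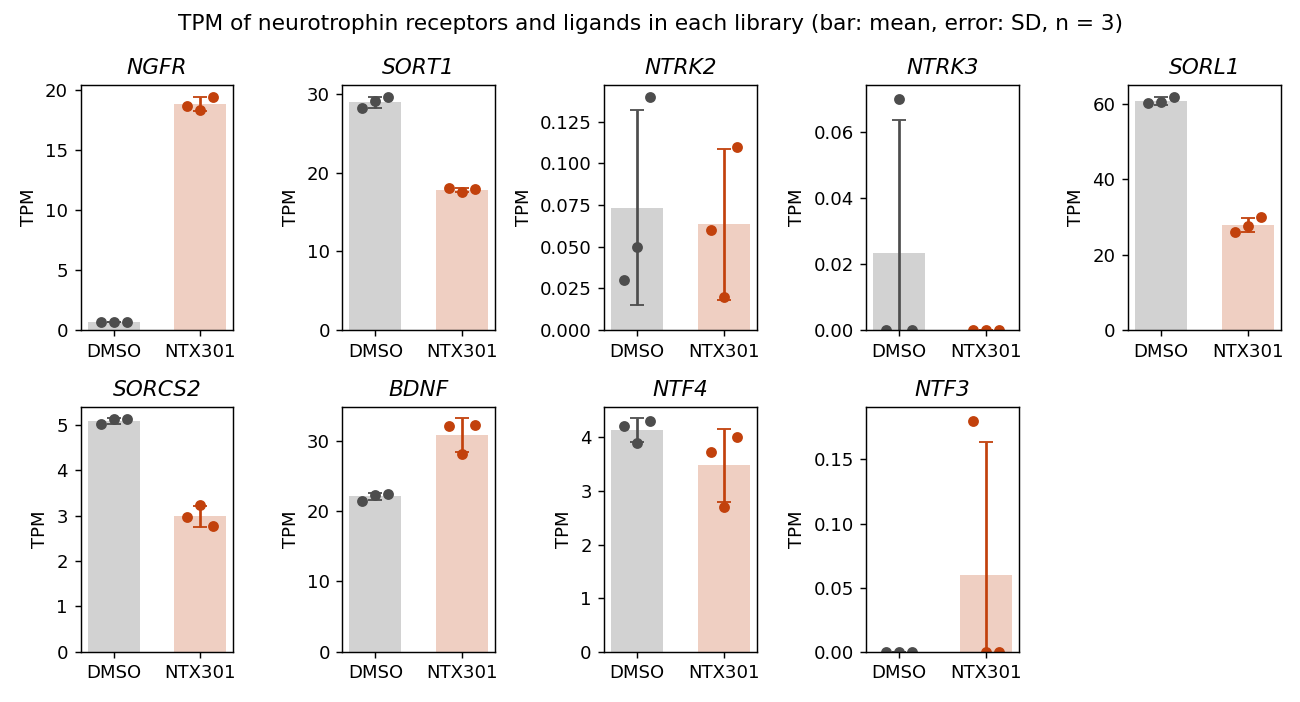
TPM (vertical axes, each from 0 and on its own scale) of 9 receptor and ligand genes in the 3 DMSO and 3 NTX301 libraries. Points are libraries, bars are means and error lines are SD. NGFR lies at 0.63 to 0.68 TPM with DMSO and at 18.34 to 19.42 TPM with NTX301, whereas the NTRK2, NTRK3 and NTF3 panels show values of 0.18 TPM or less.

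Reads of NGFR were assigned to transcripts of the same mean length, 3408 bases, in all 6 libraries. Its antisense neighbour NGFR-AS1 had 1 count with DMSO and 2 with NTX301 over the 3 libraries of each group. Among the 15966 other tested genes averaging at least 1 CPM, the genes with log2 CPM profiles most like that of NGFR over the 6 libraries were looked up, by Euclidean distance after centring each gene on its own mean. With a prior count of 2 added before the log, which pulls low genes together, the 5 nearest were DRAXIN (distance 0.221), KCNJ12 (0.369), IL11 (0.445), CNN1 (0.499) and S1PR1 (0.604). Without a prior count, a setting added after the data were seen, 3 of these 5 were still among the 5 nearest: KCNJ12 (0.363), CNN1 (0.452) and IL11 (0.514), while DRAXIN (0.873) fell to place 13 and S1PR1 (1.414) to place 47. KCNJ12, a potassium channel gene, went from 0.728 ± 0.0888 to 17.2 ± 1.58 CPM (n = 3 each), the cytokine gene IL11 from 0.812 ± 0.134 to 25.7 ± 0.337 CPM and CNN1 (calponin, an actin-binding protein) from 0.479 ± 0.0856 to 10.7 ± 0.218 CPM.

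SORT1, the sortilin gene (ENSG00000134243.12, chromosome 1, 109309568 to 109397951, minus strand), encodes a VPS10P-domain receptor that sorts proteins in the cell and joins p75 in binding precursors. It had 28.24, 29.08 and 29.64 TPM in the DMSO libraries and 18.04, 17.56 and 17.93 TPM in the NTX301 libraries. All NTX301 libraries lay below all DMSO libraries. In CPM it went from 122.0 ± 0.125 to 65.0 ± 1.65 (log2 fold change -0.91 ± 0.04, n = 3 each). Its mean transcript length differed by less than the spread between libraries (6990.28 and 6990.26 bases, exact permutation p = 0.9, where 0.1 is the smallest p that 3 against 3 allows). The genes nearest to SORT1 in profile were TIMP2 (distance 0.046), TRNP1 (0.046), TMEM242 (0.046), KDM4B (0.049) and ADAM10 (0.056), and the same 5 were nearest without the prior count.

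NGFR and SORT1 thus stood in different proportion in the 2 groups. The NGFR level in TPM was 2.23%, 2.2% and 2.29% of the SORT1 level in the DMSO libraries, and 103.4%, 104.4% and 108.3% in the NTX301 libraries. With DMSO the order of the members by TPM was SORT1, BDNF, NTF4, NGFR and then NTRK2, NTRK3 and NTF3, and the ranges of the first 4 did not overlap. With NTX301 it was BDNF, NGFR, SORT1 and NTF4, again without overlap between neighbours. Among the 3 lowest members, each overlapped the next in order in both groups.

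BDNF (ENSG00000176697.20, chromosome 11, 27654893 to 27722058, minus strand) was the most abundant neurotrophin gene. It had 21.45, 22.31 and 22.45 TPM with DMSO and 32.12, 28.09 and 32.25 TPM with NTX301, and the groups did not overlap. In CPM it went from 52.9 ± 0.366 to 64.0 ± 4.21 (n = 3 each), a log2 fold change of 0.27 ± 0.05, and 35.1% of the tested genes had a higher one. The size of this difference depended on the scale, at 0.48 with library totals alone and 0.46 on log2(TPM + 1). BDNF overlaps the antisense RNA gene BDNF-AS, which had 4.18 ± 0.614 CPM with DMSO and fell to 2.56 ± 0.292 CPM (log2 -0.70 ± 0.16, edgeR adjusted p = 0.0017), and whether reads were counted by strand is not given in the labels, so reads of the pair cannot be told apart. The gene has 15 transcripts in the tables. Their mean length was 4014.85 ± 2.56 bases with DMSO and 4022.56 ± 5.03 with NTX301 (difference 7.71 bases, exact permutation p = 0.1, adjusted 0.25 over the 5 genes compared), with no overlap between groups.

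NTF4, the other TrkB ligand (ENSG00000225950.9, chromosome 19, 49061066 to 49065054, minus strand), was lower by CPM, from 3.73 ± 0.0633 with DMSO to 2.58 ± 0.421 with NTX301 (log2 -0.53 ± 0.15, n = 3 each). By TPM the libraries had 4.21, 3.89 and 4.31 with DMSO and 3.72, 2.7 and 4.01 with NTX301, so the groups overlapped on that scale, and NTX301 replicate 2 was the lowest. Relative to BDNF, the NTF4 level in TPM was 17.4% to 19.6% with DMSO and 9.61% to 12.4% with NTX301. Its mean transcript length was 1560.78 ± 96.2 and 1494.09 ± 68.5 bases (exact permutation p = 0.6).

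The remaining members were near 0. NTF3 (chromosome 12, 5432112 to 5521536) had 0 counts in all DMSO libraries and 3 in total with NTX301, all of them in replicate 1. NTRK3 (chromosome 15, 87859751 to 88256768) had 3 counts in DMSO replicate 2 and 0 in the other libraries. Both are at or under the floor of 3 counts over a group, which corresponds to 0.0439 CPM with DMSO and 0.0395 CPM with NTX301, and no fold is given. NTRK2, the TrkB gene (chromosome 9, 84668551 to 85027070), had 3, 3 and 9 counts with DMSO and 5, 2 and 9 with NTX301, so the groups overlapped. Its CPM ratio of 0.918 has a 95% counting interval of 0.444 to 2.08, and a difference was not detectable at this depth.

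The RefSeq promoter table (GRCh38.p14) held 6 of the 7 members, all but NGFR. NTX301 is described as acting on DNA methylation, so CpG sites were counted in these windows, the 250 bases before the RefSeq start. SORT1 had 32 CpG sites, NTF3 28, NTF4 24, NTRK3 23, BDNF 15 and NTRK2 7, where the median of all 35116 promoters was 11. The NTRK2 window lies wholly inside the GENCODE 29 gene, and 14 bases with 2 sites of the NTF4 window lie outside it. Each gene had 1 window, whatever its number of transcripts. The windows printed are those of SORT1 (lower with NTX301), BDNF (higher) and NTF3 (near 0 in both groups), 5′ to 3′ on the strand of the gene, CpG sites in capitals, without the bases that lie inside the GENCODE 29 gene, which leaves 25 of the SORT1 sites and 12 of the BDNF sites.
SORT1, chr1:109397952-109398168, minus strand: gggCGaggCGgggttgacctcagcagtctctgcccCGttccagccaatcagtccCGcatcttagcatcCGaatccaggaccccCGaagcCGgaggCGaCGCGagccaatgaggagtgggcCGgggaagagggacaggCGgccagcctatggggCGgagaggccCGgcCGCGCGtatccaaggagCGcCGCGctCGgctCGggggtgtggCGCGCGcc
BDNF, chr11:27722059-27722280, minus strand: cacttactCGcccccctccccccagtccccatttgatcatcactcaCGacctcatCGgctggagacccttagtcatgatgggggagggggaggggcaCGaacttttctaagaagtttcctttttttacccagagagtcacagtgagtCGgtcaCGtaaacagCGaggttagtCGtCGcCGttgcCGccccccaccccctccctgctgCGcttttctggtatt
NTF3, chr12:5431858-5432107, plus strand: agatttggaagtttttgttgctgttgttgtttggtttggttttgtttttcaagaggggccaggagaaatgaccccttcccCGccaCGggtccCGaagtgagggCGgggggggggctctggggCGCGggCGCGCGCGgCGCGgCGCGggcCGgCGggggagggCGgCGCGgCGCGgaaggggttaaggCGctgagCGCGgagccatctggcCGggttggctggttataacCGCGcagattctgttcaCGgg
The far end of the NTF3 window, away from the start, holds no CpG site. For NTF3, 84.1% of all promoters have fewer CpG sites, against 90.5% for SORT1 and 57.1% for BDNF. The motif GGGCGG, searched on both strands, stood in all 6 windows and in 42.6% of all promoters, and TATAAA in none of the 6 and in 10.7% of all. Methylation of these sites was not analysed here.

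Beyond the members, 119 genes in 8 lists of the pathway and its relatives were examined, of which 98 were tested. Of these, 38 rose and 45 fell (84.7% called, median log2 fold change -0.15, against 70.5% and 0.00 for all tested genes). With library totals alone as the scale the split was 46 and 29. Of all tested genes, 35.4% rose and 35.1% fell with TMM scaling. The counts of each list below, and of the marker lists, stand beside these shares. 

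Among the sorting receptors related to sortilin, SORL1 and SORCS2 fell. SORL1, which sorts membrane proteins between endosomes and the Golgi, had 60.17, 60.45 and 61.99 TPM with DMSO and 26.08, 27.54 and 29.98 TPM with NTX301 (log2 -1.44 ± 0.04, edgeR adjusted p = 5.5e-11). SORCS2, which can pair with p75 as sortilin does, had 5.02, 5.12 and 5.12 TPM with DMSO and 2.97, 3.23 and 2.77 TPM with NTX301 (log2 -0.93 ± 0.09, adjusted p = 1.3e-06). SORCS2 overlaps PSAPL1 on the other strand. PSAPL1 rose from 0.824 ± 0.0966 to 3.99 ± 0.157 CPM, while SORCS2 went from 18.2 ± 0.289 to 9.55 ± 1.04 CPM. The mean transcript length of SORL1 was 10647.59 ± 260 bases with DMSO and 9968.80 ± 466 with NTX301 (exact permutation p = 0.2). That of SORCS2 was 5953.99 ± 41.3 and 6130.18 ± 37.8 bases, without overlap between groups (exact permutation p = 0.1, adjusted 0.25). TPM is corrected for this length and CPM is not. SORCS3 had 0 counts in all 6 libraries, and SORCS1 had 0 counts with DMSO and 2 with NTX301 over the 3 libraries of each group.

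Genes that process neurotrophin precursors moved both ways. Of 14, 10 were tested, 5 rose and 4 fell (median 0.05). MMP9, a secreted metalloprotease that can cut precursors, went from 0.202 ± 0.0535 to 4.31 ± 0.332 CPM (log2 4.36 ± 0.24, edgeR adjusted p = 1.3e-08, n = 3 each). PLAT, the tissue plasminogen activator, rose from 101.7 ± 8.42 to 205.2 ± 2.68 CPM. PLG, which encodes the plasmin precursor, fell from 6.62 ± 0.658 to 0.918 ± 0.357 CPM, and the proprotein convertase PCSK6 from 152.8 ± 4.85 to 40.9 ± 6.3 CPM.

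Among 20 co-receptors and intracellular partners of p75, 18 were tested, 9 rose and 8 fell (median 0.12), and with library totals alone 10 rose and 4 fell. LINGO1, a co-receptor of p75 in the Nogo receptor complex, went from 0.351 ± 0.0275 to 4.17 ± 0.528 CPM (log2 3.55 ± 0.22, edgeR adjusted p = 3.6e-08, n = 3 each). TNFRSF19, which can take the place of p75 in that complex, rose by 1.20 ± 0.16 on the log2 scale. RTN4R, the Nogo receptor itself, fell from 3.09 ± 0.0359 to 2.13 ± 0.496 CPM (adjusted p = 0.022); it was named after its values were seen. ARHGDIA, a GDP dissociation inhibitor that p75 binds, fell by 1.04 ± 0.05. SQSTM1, an adaptor with the highest level of this list, fell by 0.47 ± 0.04. On the other strand SQSTM1 overlaps MRNIP and MGAT4B, both less abundant (mean 18.9 and 637.2 CPM, against 1671.2 for SQSTM1).

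The p75 protein is shed by an alpha secretase and then cut in the membrane by gamma secretase. Of 8 genes for these enzymes, 0 rose and 7 fell (median -0.54), where 35.4% of all tested genes rose and 35.1% fell. With library totals alone 1 rose and 6 fell. ADAM10, an alpha secretase, went from 659.6 ± 6.7 to 357.0 ± 4.26 CPM (log2 -0.89 ± 0.04, edgeR adjusted p = 1.2e-09, n = 3 each). The gamma secretase subunits NCSTN, APH1A and PSEN2 fell by 0.72 ± 0.04, 0.56 ± 0.04 and 0.56 ± 0.09 on the log2 scale. NCSTN overlaps COPA on the other strand. No gene of this list was higher at an unadjusted p under 0.05 in edgeR either (0 genes), and DESeq2 and limma-voom called 0 higher. PSENEN, named after its values were seen, was the 1 gene not called (log2 0.13 ± 0.09, adjusted p = 0.22).

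For the adaptors that carry Trk signals the split depended on the scale: of 21 tested, 5 rose and 12 fell with TMM scaling (median -0.17), and 8 rose and 4 fell with library totals alone. Most differences in this list were small. SHC4, an SHC-type adaptor, had 1.52 ± 0.336 CPM with DMSO and rose to 6.93 ± 0.205 CPM with NTX301 (log2 2.17 ± 0.15, edgeR adjusted p = 1.2e-07). SHC4 overlaps the more abundant gene EID1 on the other strand. SH2B1, an adaptor of receptor kinases, fell by 0.88 ± 0.06 and SHC2 by 0.55 ± 0.07. SHC1, the most abundant, changed by -0.20 ± 0.04 with TMM scaling and by 0.01 with library totals alone. FRS3 changed by -0.40 ± 0.15 (adjusted p = 0.035), a call lost under 8 of 14 alternatives. DESeq2 was among these (0.12, with 0.017 to 0.28 over all alternatives). FRS3 overlaps ENSG00000124593 and PRICKLE4, both more abundant, on the other strand.

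Of 13 genes known to be induced by neurotrophins in neurons, 10 were tested, 9 rose and 0 fell (median 1.11, against 0.00 for all tested genes). Over all tested genes, 35.4% rose and 35.1% fell. With library totals alone all 10 rose. At an unadjusted p under 0.05, edgeR found 0 of them lower, as did DESeq2 and limma-voom. ARC, a synaptic immediate-early gene, went from 3.81 ± 0.491 to 17.5 ± 0.29 CPM (log2 2.20 ± 0.10, edgeR adjusted p = 2.8e-09, n = 3 each). VGF, a neuropeptide precursor, went from 8.2 ± 0.905 to 33.6 ± 1.66 CPM. The transcription factor genes EGR2 (1.92 ± 0.23 on the log2 scale) and FOS (1.46 ± 0.08) rose as well, as did PLAUR, the urokinase receptor (0.52 ± 0.05). BTG2, named after its values were seen, was the 1 tested gene not called (7.61 ± 0.445 and 7.81 ± 0.394 CPM). Many stimuli other than neurotrophins induce these genes, and a link to NGFR was not tested. Of the 3 genes not tested, STMN2 had 0 counts with DMSO and 26 with NTX301. GAP43 had 3 counts with DMSO and 12 with NTX301, and its groups overlapped in CPM. NRN1 went the other way, with 18 counts with DMSO and 11 with NTX301, and its groups did not overlap in CPM. The NRN1 CPM ratio of 0.545 has a counting interval of 0.235 to 1.23, which includes 1.

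**Figure D2:**
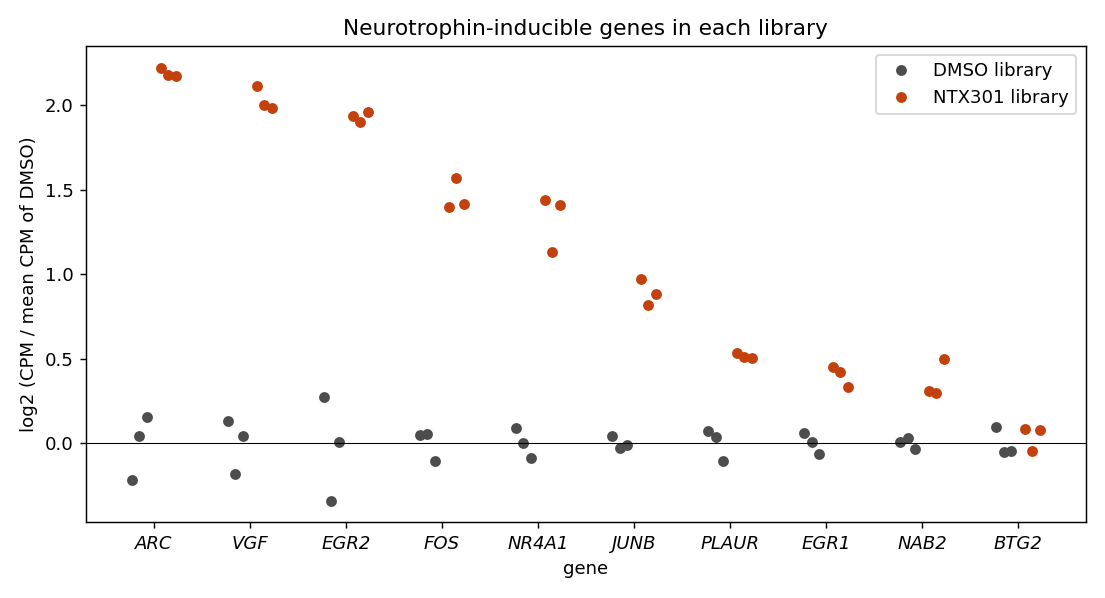
Log2 of CPM over the DMSO mean (vertical axis) for the 10 tested genes of the neurotrophin-inducible list (horizontal axis), 1 point per library, DMSO grey and NTX301 orange. For 9 genes all NTX301 libraries lie above all DMSO libraries, and for BTG2 the groups overlap.

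**Figure D3:**
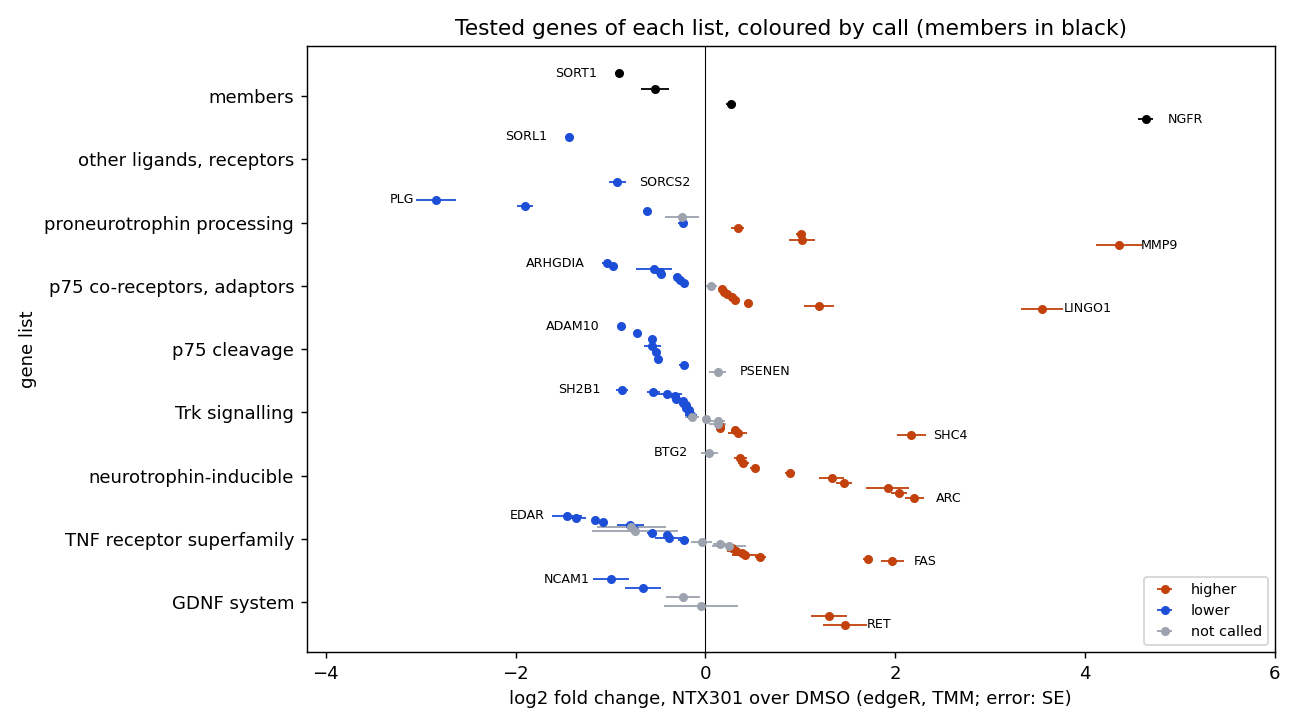
Log2 fold change of NTX301 over DMSO with its SE (horizontal axis, TMM scaling) for the tested genes reported from the members and the 8 lists (vertical axis), coloured by call, members in black. The p75 cleavage genes lie left of 0 apart from PSENEN, and NGFR at 4.64 lies to the right of the other genes shown. With library totals alone as the scale, values shift right by about the median of 0.21.

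NGFR belongs to the TNF receptor superfamily, of which 28 other genes were examined. In mean TPM, NGFR stood at place 24 of 29 with DMSO (0.65 TPM) and at place 10 with NTX301 (18.8 TPM). The listed relatives, TNFRSF19 set apart with the p75 co-receptors, numbered 27, of which 22 were tested, 7 rose and 10 fell (median -0.30), and with library totals alone 9 rose and 8 fell. FAS, the death receptor for FAS ligand, rose by 1.97 ± 0.12 on the log2 scale (edgeR adjusted p = 3e-08) and TNFRSF1B, TNF receptor 2, from 29.6 ± 1.73 to 96.7 ± 2.9 CPM. EDAR, the ectodysplasin receptor, fell by 1.46 ± 0.16 and TNFRSF14, the herpesvirus entry mediator, by 1.36 ± 0.10. TNFRSF12A, the relative with the highest summed TPM, changed by -0.23 ± 0.06 with TMM scaling and lost its call with library totals alone (log2 -0.02, adjusted p = 0.72, range over the alternatives 0.00019 to 0.72). FAS, TNFRSF14 and TNFRSF12A overlap other genes on the other strand.

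**Figure D4:**
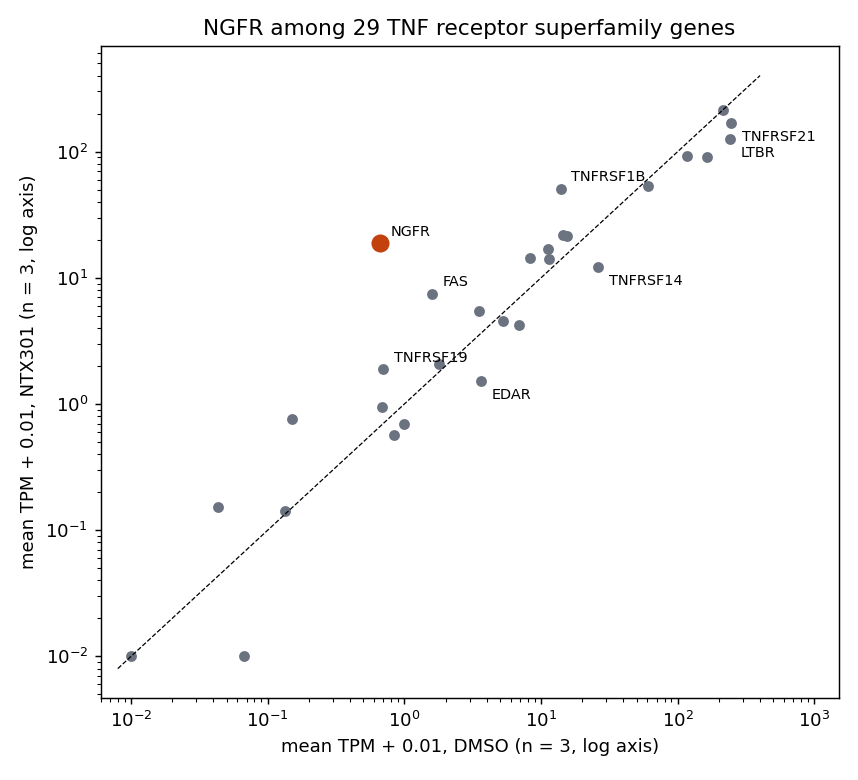
Mean TPM + 0.01 with DMSO (horizontal log axis) and NTX301 (vertical log axis) for 29 genes of the TNF receptor superfamily, n = 3 each, with a dashed line of equal level. NGFR (orange) lies farthest above the line, at 0.65 and 18.8 TPM, while receptors such as LTBR and TNFRSF14 lie below it.

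Markers of cells in which NGFR is usual were read beside it. Of 8 neural crest and Schwann cell markers 4 were tested, 2 rose and 1 fell, their summed level was 24.1 to 25.6 TPM with DMSO and 19.6 to 21.8 TPM with NTX301, and SOX10, which defines these cells, was at 0.05 TPM or less in each library. Of 11 neuronal markers 5 were tested, 3 rose and 1 fell, and the sum went from 57.1 to 63.8 TPM with DMSO to 167.6 to 185.0 TPM with NTX301. Most of this sum was TUBB3, a tubulin gene (log2 1.41 ± 0.06, edgeR adjusted p = 9.6e-10). The synaptic vesicle genes SYN1 (from 0.0845 ± 0.0851 to 1.44 ± 0.222 CPM, log2 3.96 ± 0.48, adjusted p = 1.4e-05) and SYP (from 1.29 ± 0.205 to 3.67 ± 0.392 CPM, log2 1.49 ± 0.18, adjusted p = 1.3e-05) rose too, MAP2 fell (-0.67 ± 0.09), and NEFL, ELAVL4 and INA were at 0.04 TPM or less. Of 8 fibroblast markers 5 were tested, 4 rose and 1 fell, and the sum was 5.2 to 5.89 TPM with DMSO and 21.1 to 21.9 TPM with NTX301. Most of it was COL1A1 (mean 3.87 and 15.8 TPM). The growth factor receptor genes PDGFRA (log2 2.99 ± 0.18, from 0.65 ± 0.115 to 5.16 ± 0.32 CPM) and PDGFRB (2.97 ± 0.19, from 1.08 ± 0.38 to 8.4 ± 0.556 CPM) rose, as did the collagen genes COL1A1 (1.82 ± 0.05, from 13.8 ± 0.172 to 48.4 ± 0.801 CPM) and COL3A1 (1.47 ± 0.40). LUM, a matrix proteoglycan gene, fell (-0.66 ± 0.21), COL1A2 was at 0.03 TPM or less and THY1 at 0.15 TPM or less. Of 5 immune markers 2 were tested and rose (CD68 and CD14), while PTPRC, found on all leukocytes, was at 0.07 TPM or less. Of 8 epithelial markers 2 rose and 5 fell, with a sum of 4361.0 to 4541.0 TPM with DMSO and 2644.0 to 2721.3 TPM with NTX301. Most of this sum was KRT8 and KRT18 (mean 2158.7 and 1794.2 TPM with DMSO), which fell. The 2 that rose were KRT7 (log2 1.26 ± 0.05) and CDH1 (0.31 ± 0.09). The part of the fibroblast, neuronal and epithelial markers in the NGFR result was not tested.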

How the data were processed

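Gene tables of 6 OVCAR5 libraries, 3 per treatment, were used. Per the file headers, the deposited tables have the column layout of RSEM, 1 per library. Expected counts, as deposited, estimate the reads of each gene without normalization, and the deposited TPM values were scaled by the authors' run over all genes of a table. Versions, genome build, annotation and strandedness: not given in the sources used here. The deposited length column gives the abundance-weighted transcript length in bases. Of the 62703 entries, 47 pseudoautosomal copies were added to their X genes.

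Expected counts were rounded and tested with edgeR 4.0.16 in R 4.3.3 (filterByExpr, TMM, glmQLFit and glmQLFTest, treatment as the only term, Benjamini-Hochberg over 19029 genes, threshold 0.05). The same fit was run on simulated counts in which few genes were changed, as many up as down. That run does not cover data in which 70.5% of tested genes were called. Library totals of 22131175 to 25743732 set the precision. Symbols came from a table of gene names (62639 genes matched), positions from GENCODE 29. By position, PCSK6, ADAM10, APH1A, SHC1, PHB1 and KIF18A also overlap a less abundant gene on the other strand. The members and lists were chosen with earlier results of these data known. Members and the 6 other ligands and receptors were named whatever their values. From each other list, up to 4 called genes averaging at least 1 CPM with the largest change were named, and the gene with the highest TPM. Some genes of the lists are not reported here by name, and list counts include them. Alternatives were other scalings (library totals alone, DESeq2 size factors), no filter, DESeq2 1.42.0, limma 3.58.1 with voom or on log2(TPM + 1) and log2(TPM + 0.1), a replicate block, and each library left out. Mean transcript lengths were compared by a two-sided exact permutation test. Replicate numbers were not taken to pair libraries.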

Additional observations from a re-analysis of the deposited data

How the results depend on the processing

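Fold changes of the 4 tested members kept their direction under all 14 alternatives. NGFR had a log2 fold change of 4.85 with library totals alone and 3.59 on log2(TPM + 1), where the pseudocount shrinks changes of low genes. In the same settings BDNF had 0.48 and 0.46, SORT1 -0.70 and -0.67, and on log2(TPM + 0.1) BDNF had 0.48, SORT1 -0.70 and NTF4 -0.26, with -0.21 for NTF4 on log2(TPM + 1). Leaving out 1 library gave 4.61 to 4.64 for NGFR, 0.23 to 0.33 for BDNF, -0.64 to -0.41 for NTF4 and -0.93 to -0.89 for SORT1. Of all tested genes, 4318 fell on log2(TPM + 1) and 4297 on log2(TPM + 0.1), against 6677. Of the pathway genes, 29 fell with library totals alone, 28 on log2(TPM + 1) and 27 on log2(TPM + 0.1), against 45. These scales do not centre the median gene, which lies at 0.21, 0.17 and 0.22 there. SHC1 had a log2 change of 0.01 on each of these scales, the opposite sign. Of 53 named genes and neighbours outside the members, 47 kept direction and call under all alternatives, and the other 6 were FRS3, SHC1, TNFRSF12A, NCAM1, NRTN and SPOP. The replicate number as a block gave 38 rises and 46 falls among pathway genes, and libraries of the same number did not deviate together (correlations 0.08, -0.028 and 0.043). The labels do not say that a number marks a shared culture. Depth leaves NTF3, NTRK2 and NTRK3 without a usable fold.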

Other observations

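The GDNF family, another neurotrophic factor system that signals through the receptor kinase RET, gave low levels throughout. Of 10 genes 6 were tested, 2 rose and 2 fell (median log2 fold change -0.14). RET went from 1.15 ± 0.245 to 3.21 ± 0.773 CPM (log2 1.47 ± 0.23, edgeR adjusted p = 0.00012, n = 3 each), and GFRA2, the co-receptor for neurturin, from 1.38 ± 0.21 to 3.43 ± 0.512 CPM. NCAM1, which can bind GDNF, fell by 0.99 ± 0.19 on the log2 scale and NRTN, the neurturin gene, by 0.66 ± 0.19. DESeq2 did not call NRTN (adjusted p = 0.053, with 0.0061 to 0.053 over all alternatives), and limma on log2(TPM + 0.1) did not call NCAM1 (0.056, with 0.00045 to 0.056). GDNF itself had 0 counts with DMSO and 1 with NTX301, and GFRA1 had 0 in all libraries.

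The nearest tested protein-coding genes on both sides of each member were looked up by position, after the values of the members were seen. Of all tested genes, 70.5% were called. Those beside NGFR are given first, then ANO2, picked because it had the largest change of these neighbours. PHB1, a mitochondrial prohibitin 80388 bases before NGFR, rose from 178.7 ± 13.6 to 266.5 ± 5.57 CPM (log2 0.58 ± 0.05, edgeR adjusted p = 1.1e-06, n = 3 each). SPOP, a ubiquitin ligase adaptor 83867 bases after it, changed by -0.25 ± 0.04 with TMM scaling and by -0.05 with library totals alone (adjusted p = 0.31, range over the alternatives 1.3e-05 to 0.42). ANO2, a chloride channel gene 10333 bases after NTF3, went from 0.102 ± 0.0227 to 1.12 ± 0.184 CPM (log2 3.38 ± 0.37, adjusted p = 6.5e-06), while NTF3 had at most 3 counts in a group. ENSG00000255639, on the other side of NTF3, rose by 0.47 ± 0.09 on the log2 scale. Beside the other members, KIF18A (1.43), PSRC1 (1.02), RMI1 (0.98), MRPL46 (0.85), KLHL25 (0.56), AGTPBP1 (0.33), PSMA5 (0.33) and LIN7C (0.22) rose. SNRNP70 fell (-0.45), and CGB7 was not called (-0.04).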
